A study of Mus musculus with 24 samples.

Results

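Of the 24 arrays of the series, 6 carried lymphocytes sorted from transgenic mouse thymus lacking Foxn1 (Foxn1-deficient, -/-), and these were compared by lineage: DP thymocytes, the CD4/CD8 double-positive stage of T cell development (tg DP, n = 4, arrays 4, 6, 6A and 6B), against B cells without surface IgM (tg B, n = 2, arrays 22 and 23). The arrays were chosen by their titles. Every one of the 6 came from the same labelled tissue and genotype, so the Foxn1 deficiency was shared and only the sorted phenotype was meant to differ. The labels used here name neither the transgenes nor the promoter that drives them, give no age or sex, and do not say whether DP and B cells came from the same line or from separate animals. Arrays 6, 6A and 6B share a title number and may be repeats of 1 sample, and p-values then measure only the spread between these samples. Reference values came from DP thymocytes of Foxn1 heterozygous (+/-) thymus, called wt (n = 3), and from IgM-negative B cells of wild-type fetal liver (n = 3).

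Foxn1 is the transcription factor that makes thymic epithelium able to attract and instruct lymphoid progenitors, and without it T cell development in the thymus fails. A progenitor that receives a Notch signal is directed to the T lineage, in which Tcf7, Gata3 and Bcl11b are switched on, the T cell receptor beta and then alpha genes are rearranged by the Rag1 and Rag2 recombinase, and the DP stage is reached. A progenitor held to the B lineage by Ebf1 and Pax5 rearranges immunoglobulin genes with the same recombinase, and before the first IgM reaches the surface it carries a pre-B receptor made with Igll1 and Vpreb1.

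Each value below is a level: log2 of the processed signal of a gene's brightest probe minus the array's 75th percentile. A difference is tg DP minus tg B on that log2 scale, with the standard error (SE) of limma's fit, and a gene was called where limma's moderated test, after Benjamini-Hochberg adjustment over all genes, gave a p under 0.05. Brightness differs between probes for reasons other than RNA amount, so levels were not compared between genes. In bulk samples fewer cells of a type and less RNA per cell cannot be told apart. Arrays 4 and 23 are called dim here and were set apart. On tg DP 4, 88.0% of probes were well above background and on tg DP 6, 6A and 6B 93.6%, 95.0% and 89.6% were. The median processed signal of tg DP 4, 232.4, lay within the 217.7 to 234.5 of the other tg DP arrays, so it was not dim by that measure. On tg B 23 only 80.6% were, against 89.6% on tg B 22 and 87.6% to 96.7% on the other 18 arrays, and its median processed signal of 125.2 compared with 217.7 to 256.7 on the other 5 transgenic arrays. The arrays lay on 4 slides, with tg DP 4 on slide 1, tg DP 6, 6A and 6B on slide 2 and both tg B arrays on slide 4. DP and B arrays of the transgenic thymus shared no slide, so slide and lineage cannot be told apart within these 6 arrays.

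Some T lineage regulators were higher in tg DP and others were not. Of the 20 T lineage markers, 4 were called higher in tg DP, among them Ets1, Tcf7 and Satb1. None was called lower. Gata3 and Bcl11b differed by 0.81 (adjusted p = 0.422) and 0.78 (adjusted p = 0.47), and their levels overlapped between the groups. Lef1 and Cd6, with differences of -1.56 (adjusted p = 0.341) and -0.92 (adjusted p = 0.166), were among the 8 markers with a lower mean in tg DP. Over all 33542 genes tested, 419 were called higher in tg DP, which is 1.25%, and 310 lower, which is 0.924%. The median difference of the 20 markers was 0.74 against 0.12 over all genes. Of the 20, 12 had a higher mean in tg DP, close to the 58.3% of all genes that did. In 8 of the 20 every tg DP array lay above both tg B arrays, an arrangement found in 12.7% of all genes, and in 0 every tg DP array lay below both, an arrangement found in 8.06%. Without both dim arrays the markers' median was 0.55 against 0.09 over all genes, and 16 had a higher mean in tg DP. Between wt DP and fetal liver IgM-negative B cells the median of the same 20 markers was -0.165, with 8 higher in mean in wt DP. As a set they therefore did not favour the T cells of that reference pair.

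Ets1, a transcription factor needed for T cell maturation, had levels of 0.89, 1.10, 0.96 and 2.77 on tg DP 4, 6, 6A and 6B, and of -2.04 and -2.13 on tg B 22 and 23. All DP arrays, the dim one included, lay far above both B arrays, and the difference was 3.52 (SE 0.67, adjusted p = 0.0184), a fold of 11.4. Satb1, a chromatin organiser of thymocytes, had levels of -0.82, 0.82, -0.16 and 1.43 in tg DP and -4.95 and -4.14 in tg B, a difference of 4.86 (SE 1.20, adjusted p = 0.0436). The groups were again apart on every array. Tcf7, the Notch-induced factor TCF-1 that opens the T cell programme, had levels of -3.35, 0.53, -0.86 and 1.08 in tg DP and -4.56 and -6.09 in tg B, a difference of 4.67 (SE 1.11, adjusted p = 0.0385). It was well above background on all tg DP arrays and 1 of 2 tg B arrays. Here the dim tg DP 4 lay closer to tg B 22 than to any other DP array.

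The probes of these genes bear on how firm each value is, and their first 30 bases, 5′ to 3′ as deposited, are shown for Ets1, whose probes were alike, and for Tcf7 and Rag1, whose probes were not.
Ets1, main probe: acaaacctaagatgaattatgagaaactga
Ets1, other probe: gttggggtctatataaacctgttgaactct
Tcf7, main probe: ttttttcattctcgctgtagatagcctgaa
Tcf7, other probe: ccaatacttcttggaccaagaatacctggt
Rag1, main probe: agttgtttgatgcatgtgtatgccattaga
Rag1, other probe: ggtgtcataaatttttcaataatgaagtta
In the array's annotation (build mm9) the Ets1 probes lie at chr9:32561826-32561885 and chr9:32564860-32564919, those of Tcf7 at chr11:52066114-52066173 and chr11:52066738-52066797, and those of Rag1 at chr2:101478813-101478872 and chr2:101481051-101481110. No source used here says whether they lie in coding or untranslated parts. The other Ets1 probe differed by 3.77, in the direction of the main probe. The other Tcf7 probe differed by only 0.17: its levels were -2.68, -0.50, -3.21 and -0.03 in tg DP and -2.97 and -0.57 in tg B, so that the groups overlapped. Satb1 had 1 probe.

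**Figure D1:**
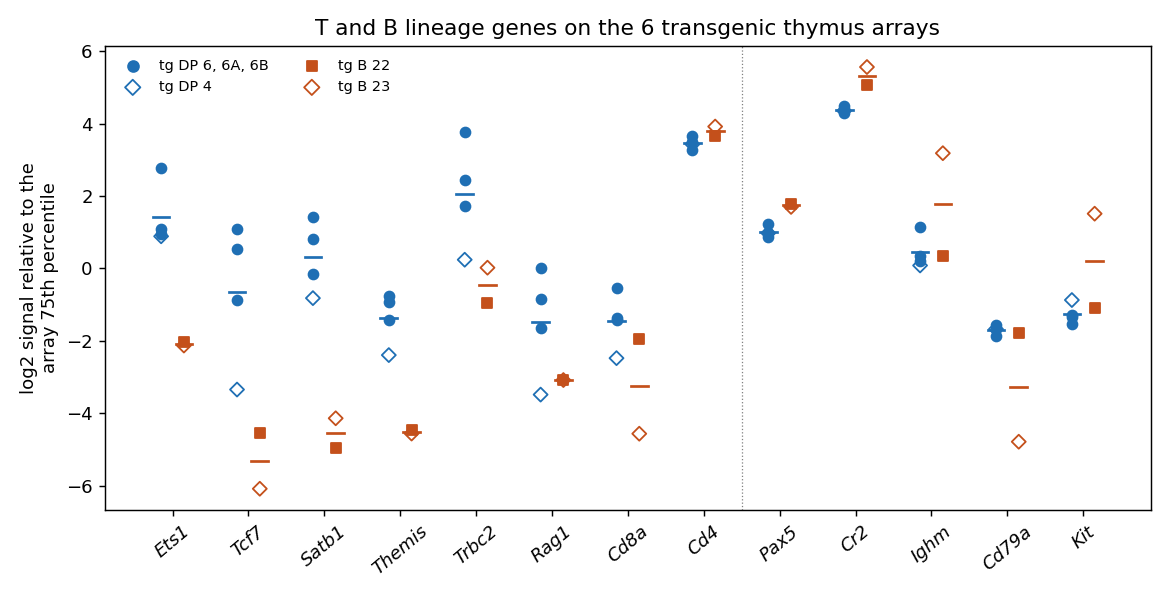
Levels (log2, relative to the array 75th percentile) of 8 T lineage or DP stage genes, left of the dotted line, and 5 genes of the B lineage or of progenitors, right of it, on each of the 6 transgenic arrays; short bars are group means and open diamonds are the dim arrays tg DP 4 and tg B 23. Ets1, Satb1 and Themis are apart on every array, Cd4 is nearly level, and for Ighm, Cd79a and Kit the open tg B diamond alone leaves the DP range.

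These calls needed the dim tg B 23. Without it the Ets1 difference was 3.47 (adjusted p = 0.165), that of Satb1 5.27 (adjusted p = 0.249) and that of Tcf7 3.91 (adjusted p = 0.357), so that the sizes were largely kept and no call was. With the slide as a fixed block, which links the 2 groups only through the other samples, the differences were 3.82, 5.07 and 5.89 in the same order, and none of the 3 was called. Slide 4 shared only the fetal liver IgM-positive B group with another slide, with arrays 20 and 21 on slide 4 and array 19 on slide 1. Each slide-block difference between tg DP and tg B thus rests on array 19. With arrays that share a title number averaged, so that tg DP counted as 2 samples, they were 3.34 (adjusted p = 0.114), 4.48 (adjusted p = 0.208) and 3.78 (adjusted p = 0.213). Of 32 called genes among those considered for the text, 5 were still called without tg B 23, 2 with title numbers averaged and 0 with slide as a block. Between wt DP and fetal liver IgM-negative B cells the same differences were -0.26 for Ets1, 1.85 for Satb1 and 3.16 for Tcf7.

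Components of the T cell receptor separated less evenly. Of 5 constant region genes 4 had a higher mean in tg DP, the median difference was 0.85, 0 were called higher and 1 lower. Trbc2, a constant region of the beta chain, had levels of 0.24, 2.43, 1.73 and 3.77 in tg DP and -0.96 and 0.02 in tg B, a difference of 2.51 (SE 0.67, adjusted p = 0.0558). Trac, the alpha constant region, was well above background on 2 of 4 tg DP arrays, 6 and 6B, and on 0 of 2 tg B arrays, with levels of -7.53, -1.91, -5.23 and -0.83 against -7.61 and -7.34. It did not pass the threshold (adjusted p = 0.116). No size is given for its difference, because 2 tg DP arrays were not well above background either. Trbc1, the other beta constant region, differed by 0.85 (adjusted p = 0.24). A probe named Tcra was called lower in tg DP by a small amount, a difference of -0.66 (SE 0.17, adjusted p = 0.0499), with 0.39, 0.18, 0.30 and 0.30 against 0.70 and 1.22. It was -0.40 (adjusted p = 0.503) without tg B 23. Near-identical constant regions can share signal, so the split between Trbc1 and Trbc2 is uncertain. Themis, a signalling protein of thymocyte selection, differed by 3.14 (SE 0.84, adjusted p = 0.0564), with -2.40, -0.76, -1.43 and -0.93 against -4.48 and -4.56. Cd247, the zeta chain of the receptor complex, differed by 2.01 (adjusted p = 0.0835). Cd3e, a defining chain of that complex, did not separate the groups: its levels of 0.41, 0.62, 0.76 and 0.55 in tg DP bracketed 0.65 and 0.61 in tg B.

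The coreceptors by which DP cells are sorted were not called. Cd8a had levels of -2.48, -0.55, -1.42 and -1.36 in tg DP and -1.95 and -4.57 in tg B, a difference of 1.81 (SE 0.58, adjusted p = 0.0945), and its other probe differed by 2.71. The main probe differed by 0.50 (adjusted p = 0.811) without tg B 23. Cd8b1 differed by -0.30 (adjusted p = 0.777) and Cd4 by -0.32 (SE 0.16, adjusted p = 0.259). Cd4 was bright in both groups, between 3.28 and 3.65 in tg DP and at 3.66 and 3.92 in tg B. Of the 18 DP stage genes 0 were called and their median difference was 0.12, equal to that of all genes. In 10 of them the mean was higher in tg DP, as in 58.3% of all genes. Without both dim arrays it was 0.44 against 0.09. Bcl2l1, which encodes the survival protein BCL-XL, differed by 1.90 (SE 0.72, adjusted p = 0.148).

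The recombinase gave a split result. The main Rag1 probe differed by 1.60 (SE 0.70, adjusted p = 0.204), with -3.49, -0.84, -1.64 and 0.02 in tg DP against -3.09 and -3.08 in tg B. Its other probe was well above background on all 4 tg DP arrays and on 0 of 2 tg B arrays, with -2.20, -0.22, -1.70 and 0.52 against -5.70 and -6.62. The main Rag2 probe had -5.91, -0.39, -1.25 and 0.52 in tg DP and -0.92 and -5.98 in tg B, so that each group held 1 dim array far below the rest, and the other Rag2 probe differed by -1.79. Of the 12 V(D)J recombination genes 9 had a higher mean in tg DP and 0 were called, with a median of 0.41 that was 0.10 without both dim arrays. With slide as a block the direction turned: 1 of 12 was higher and the median was -0.31.

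Among the Notch pathway and pre-T cell receptor genes, 1 of 12 was called higher and 1 lower, and the median difference was -0.09. Notch3, a Notch receptor of early thymocytes, had -0.80, -1.07, -1.33 and -0.10 in tg DP and -1.68 and -4.82 in tg B, a difference of 2.43 (SE 0.54, adjusted p = 0.032). The difference rested on tg B 23 and was 0.86 (adjusted p = 0.457) without it. Il2ra, the interleukin-2 receptor alpha chain that marks early double-negative thymocytes, was lower in tg DP, with -3.58, -3.12, -2.60 and -3.53 against -1.58 and -1.93, a difference of -1.45 (SE 0.35, adjusted p = 0.0385). It was -1.62 (adjusted p = 0.219) without tg B 23. Notch1 differed by 0.03 (adjusted p = 0.964) and Ptcra, the surrogate alpha chain of the pre-T cell receptor, by 0.34 (adjusted p = 0.436). Their levels overlapped between the groups.

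Genes that define B cells did not mark the tg B arrays as a set. Of the 20 B lineage markers 1, Cr2, was called lower in tg DP, 0 were called higher, and the median difference was 0.12, again that of all genes. In 11 the mean was higher in tg DP, again near the 58.3% of all genes. Without both dim arrays the median was -0.22 against 0.09 over all genes, and 8 had a higher mean in tg DP. The labelled B cell type was therefore not borne out by this list, but the list separated the reference pair little as well. Between wt DP and fetal liver IgM-negative B cells its median was -0.198, with 7 of 20 higher in mean in wt DP. Cd79b and Ms4a1 (CD20) differed by 0.22 (adjusted p = 0.748) and -0.88 (adjusted p = 0.271). Cd79a, the signalling chain of the B cell receptor, stood at -1.79 on tg B 22, within the DP range of -1.86 to -1.57, and at -4.79 on the dim tg B 23.

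The B lineage genes that did point to tg B differed little. Cr2, complement receptor 2, had 4.35, 4.29, 4.40 and 4.50 in tg DP and 5.06 and 5.56 in tg B, a difference of -0.92 (SE 0.15, adjusted p = 0.0107), or a fold of 1.90. Its other probe differed by -0.74, and the difference was -0.67 (adjusted p = 0.15) without tg B 23. Pax5, the factor that fixes B cell identity, had 0.97, 0.96, 1.22 and 0.86 against 1.78 and 1.70, a difference of -0.74 (SE 0.21, adjusted p = 0.0648). Its other probe differed by -0.72, and without tg B 23 the main probe differed by -0.78. Both Pax5 arrays of tg B lay above all DP arrays and above the spread within either group, although the gene did not pass the threshold. Of 16 B lineage transcription factors 10 had a higher mean in tg DP, 0 were called and the median difference was 0.08. Ebf1 differed by -0.35 (adjusted p = 0.833). Erg, an ETS factor of haematopoietic progenitors, had -4.15, -2.02, -2.52 and -1.65 in tg DP and was not well above background in tg B, at least 6.49-fold lower there (adjusted p = 0.129).

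Pre-B and B cell receptor genes held 0 calls among 13, with a median of 0.22. Igll1 differed by -0.98 (adjusted p = 0.344) and Vpreb1 by 1.48 (adjusted p = 0.282). Ighm, the IgM heavy chain, had 0.08, 0.34, 0.19 and 1.14 in tg DP, 0.35 on tg B 22 and 3.18 on tg B 23. The dim array alone was high, and the difference of -1.33 (adjusted p = 0.163) was 0.09 without it. Igkc behaved likewise, at -3.05 on tg B 22 and -0.09 on tg B 23 against -3.45 to -1.68 in tg DP. Kit, the receptor for stem cell factor, stood at 1.51 on tg B 23 and at -1.09 on tg B 22, within the DP range of -1.53 to -0.87, and its difference was -1.48 (SE 0.43, adjusted p = 0.0706).

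Variable segments of both receptor families were looked at after the other values had been seen. Of 68 T cell receptor V segments 52 had a higher mean in tg DP, where 58.3% of all genes did. The median difference was 0.38, 2 were called higher and 0 lower. Of 92 immunoglobulin V segments 44 had a higher mean in tg DP, the median was -0.07, 1 was called higher and 0 lower. Without both dim arrays the medians were 0.15 and 0.03 against 0.09 over all genes.

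A signature taken from the 18 arrays outside the transgenic thymus gave a second view. The 100 genes that most favoured the 6 fetal liver B arrays over the 12 wt thymocyte arrays had a median difference of -0.66 between tg DP and tg B, with 8 higher in mean in tg DP and 91 lower. In 78 of them all 4 tg DP arrays lay below both tg B arrays, against 8.06% of all genes. The mean level of the signature was 0.83 to 1.10 on the tg DP arrays and 1.41 and 1.68 on tg B 22 and 23, so the groups did not overlap. The 100 genes that most favoured thymocytes had a median of 0.20 against 0.12 over all genes, with 77 higher in mean in tg DP. Calls numbered 45 of 100, all lower, in the first set, against 0.924% of all genes, and 6 of 100, all higher, in the second, against 1.25%. These counts are not independent of the choice, because genes were picked for a small spread on arrays that also set the spread of the fit; when the 6 transgenic arrays were fitted alone, 0 genes of either set were called.

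Slide moved with that signature. Both tg B arrays shared slide 4 with 5 of the 6 fetal liver B arrays, and no thymocyte array lay on it. With slide as a fixed block the B set had a median of -0.55 against -0.02 over all genes, with 15 higher, while the T set turned to -0.24, with 42 higher. That fit again rests on fetal liver array 19, which also entered the choice of the signature. Among the genes described here, the B set held Cr2, Igkc and Fbxo17, and the T set held Tcf7, Trbc1 and Trbc2.

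**Figure D2:**
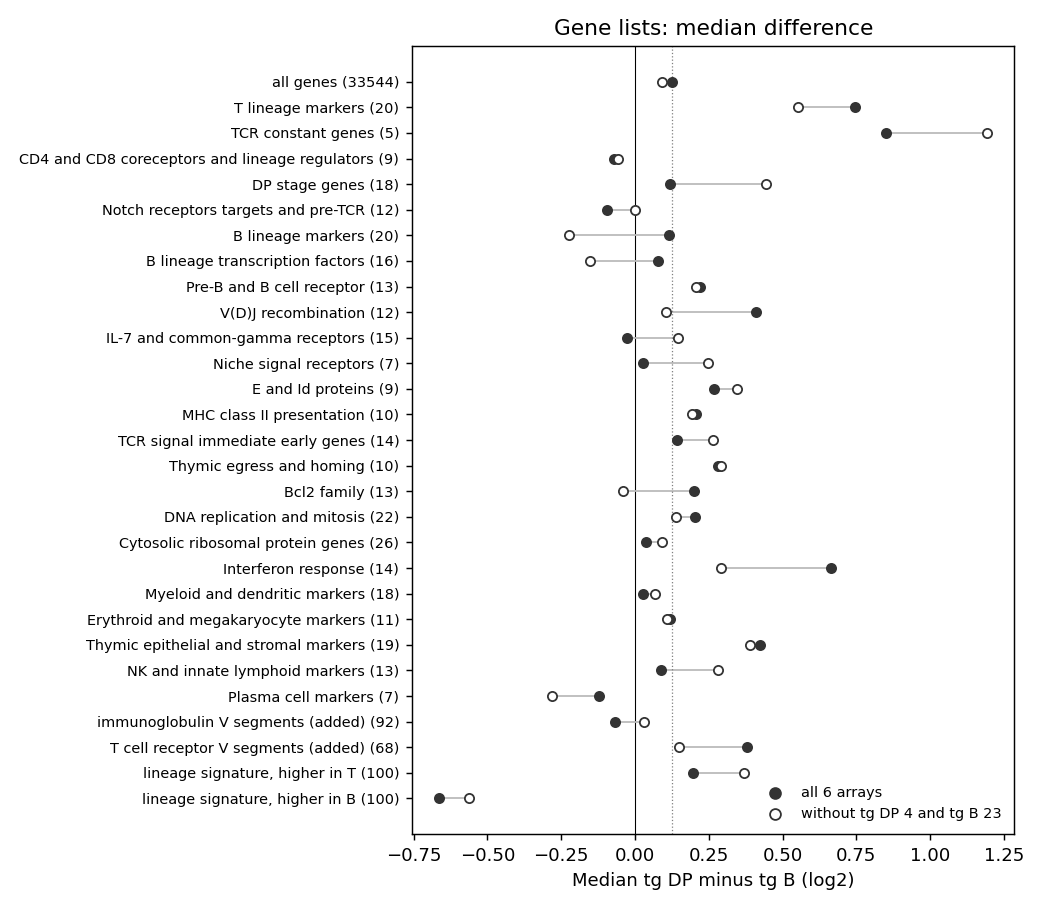
Median difference (log2, tg DP minus tg B) of each gene list, of the V segments and of both signature sets, with the number of genes measured in parentheses; filled points use all 6 arrays, open points leave out tg DP 4 and tg B 23, and the dotted line is the median of all genes, 0.12. T lineage markers lie to the right at 0.74 and 0.55, and the B signature lies to the left at -0.66 and -0.56.

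Across all genes, the strongest calls lay mostly outside the lineage lists. Supt16, part of the FACT complex that moves histones, had -2.10, -2.98, -3.33 and -1.43 in tg DP and -7.75 and -7.45 in tg B, where it was not well above background on either array. It was at least 7.09-fold higher in tg DP (adjusted p = 0.00169). A bound of this kind sets the tg DP mean against, per tg B array, the higher of the probe's own level and the dimmest signal well above background. Anxa1, a phospholipid-binding protein, was at least 9.19-fold higher (adjusted p = 0.00441), Ppp2r5c, a regulatory subunit of protein phosphatase 2A, at least 25.1-fold (adjusted p = 0.00847) and Ablim1, an actin-binding protein, at least 29.9-fold (adjusted p = 0.00847). Laptm4a, a lysosomal membrane protein measured in both groups, had 1.30, 0.70, 0.90 and 0.72 against -4.45 and -4.50, a difference of 5.38 (SE 0.71, adjusted p = 0.00438). Flcn, the tumour suppressor folliculin, differed by 2.70 and the mitochondrial cytochrome b gene CYTB by 3.37 (adjusted p = 0.00441 for each). With slide as a block none of these 7 genes was called: adjusted p was 0.141 for Supt16, 0.287 for Anxa1, 0.112 for Ppp2r5c, 0.129 for Ablim1, 0.057 for Laptm4a, 0.118 for Flcn and 0.0968 for CYTB, and each was still higher in tg DP.

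Other probes of the same genes did not always follow. A second Ppp2r5c probe was well above background on all 4 tg DP arrays and neither tg B array, but second probes differed by 0.82 for Anxa1 and -0.19 for Flcn, and the other Ablim1 probes by 0.60 and -1.61. Over all genes, other probes that were well above background on the 6 arrays went in the direction of the main probe in 55.2% of 14112 cases. They did so in 70.0% of 140 cases for genes called higher and in 49.7% of 167 cases for genes called lower.

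Genes called lower in tg DP had smaller fitted differences and were brighter. Their median difference was -0.999 and their median level on the other 18 arrays was 0.46, whereas genes called higher had a median difference of 2.30 and a median level of -1.40, and all genes a level of -1.13. The 2 medians are not alike. Of the 419 called higher, 76 were well above background on no tg B array and 81 on only 1, so part of their differences run into background. All 310 called lower were well above background on both. Akr7a5, an aldehyde reductase, had -1.50, -1.85, -1.81 and -2.18 in tg DP and 1.17 and 0.48 in tg B, a difference of -2.66 (SE 0.36, adjusted p = 0.00438). It was still called without tg B 23, at -3.00 (adjusted p = 0.0189), but not with slide as a block, at -2.28 (adjusted p = 0.135), nor with title numbers averaged, at -2.54 (adjusted p = 0.0803). Oxsm, a mitochondrial fatty acid synthase, was not well above background on any tg DP array and was at least 13.3-fold higher in tg B (adjusted p = 0.0162), with -3.14 on tg B 22 and -0.22 on tg B 23. Without tg B 23 its fitted difference went from -4.00 to -2.54 and the call was lost (adjusted p = 0.245). Fbxo17, a substrate adaptor of a ubiquitin ligase, differed by -1.26 (adjusted p = 0.00483), but its other probe by 0.52. Igf1, the growth factor, and Kat6b, a histone acetyltransferase, differed by -0.96 (adjusted p = 0.0121) and -0.78 (adjusted p = 0.0163). The other Kat6b probe differed by -0.13, with overlapping groups. All other Igf1 probes were lower in mean in tg DP too. The probe among them that was well above background on all 6 arrays differed by -0.20, with overlapping groups.

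**Figure D3:**
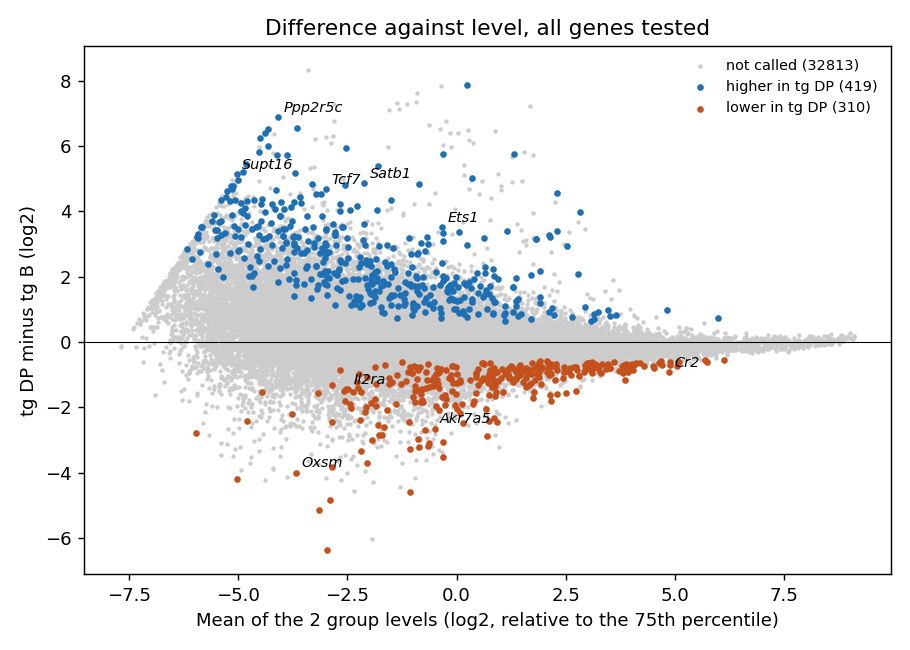
Difference (log2, tg DP minus tg B) of every gene tested against the mean of the group levels (log2, relative to the 75th percentile); blue points are the 419 genes called higher in tg DP, orange points the 310 called lower, grey points the rest. Calls upward reach 6 log2 units and more among dim genes, and calls downward follow a narrow band below 0 that reaches into the brightest genes.

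The balance of calls moved with the dim array and with the scaling. When genes were split into 10 equal groups by their level on the other 18 arrays, the dimmest group had a median difference of 0.34 against tg B 22 and 1.22 against tg B 23, and the brightest one of 0.07 and -0.25. With quantile scaling the median of all genes was -0.01 in place of 0.12, and 142 genes were called higher and 193 lower. With median scaling it was -0.15, and 333 were called higher and 879 lower. The direction of the T lineage median was positive under each scaling, at 0.37 and 0.47.

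Without tg B 23, 14 genes were called higher and 9 lower, and without both dim arrays 9 and 4. Without tg B 22, so that tg B 23 stood alone and was assumed to vary like the other groups, 3659 were called higher and 3020 lower. Of the 419 genes called higher, 418 kept their direction without both dim arrays, as did all 310 called lower, but the same bright arrays entered both fits. Supt16 (adjusted p = 0.0406), Ablim1 (adjusted p = 0.0225) and Akr7a5 (-3.11, adjusted p = 0.03) were among the genes still called without both.

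**Figure D4:**
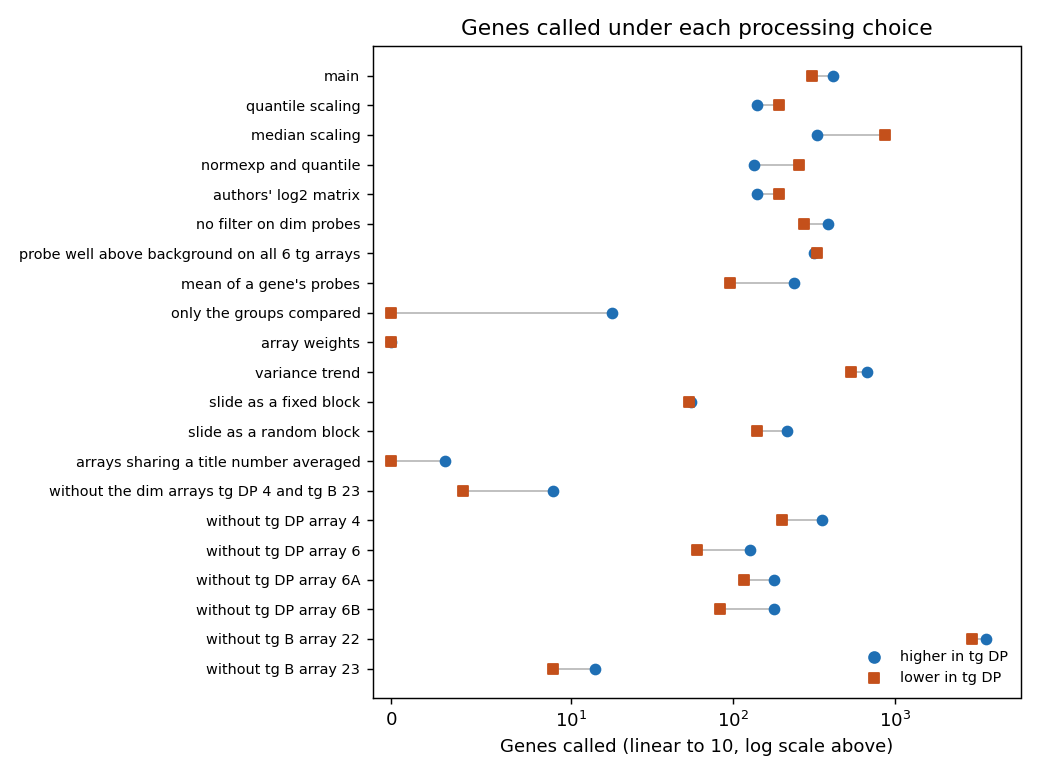
Number of genes called higher (blue circles) and lower (orange squares) in tg DP under the main settings and each alternative; the horizontal axis is linear to 10 and logarithmic above. The counts run from 0 and 0 with array weights to 3659 and 3020 without tg B 22, and the main settings gave 419 and 310.

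Detection was uneven between the groups. A probe of the gene was well above background on all 4 tg DP arrays and on neither tg B array for 263 genes, or 0.784%. The reverse, both tg B arrays and no tg DP array, held for 8 genes, or 0.024%. Of the 263, 56 were called higher, where 1.25% of all genes were. The 263 were picked for being detected in tg DP only, so that count is not independent of the choice. Fewer probes were above background on tg B 23 than on any other array, and its part in these counts was not tested.

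Genes placed on chromosome Y were examined after the values had been seen; 8 of them were among the 263. They were 123 in number, of which 107 lie on unplaced Y sequence in the annotation and 19 carry a symbol of the reference table; many Y genes belong to repeated families whose members can share signal, so they are not independent. Their median difference was 3.53 against 0.12 over the other genes. All 4 tg DP arrays lay above both tg B arrays in 92 of the 123, and in 12.7% of all genes. Of the 123, 8 were called higher and 0 lower, against 1.25% and 0.924% of all genes. Their median level was 1.87, 2.89, 2.92 and 3.08 on tg DP 4, 6, 6A and 6B and -1.05 and -1.79 on tg B 22 and 23. Without both dim arrays the median difference was 3.54, and with slide as a block 3.22.

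The same measure varied within groups outside the transgenic thymus. It was 2.98 on wt DP 3, but -1.60 and -1.69 on wt DP 2 and 3A, and 0.00, 2.55 and 1.73 on the fetal liver IgM-negative B arrays 16, 17 and 18. Arrays wt DP 3 and 3A share a title number, as tg DP 6, 6A and 6B do, yet they stood at 2.98 and -1.69. Whether a shared title number means 1 sample was not tested. Ssty2, a member of a Y-linked multicopy family known from the testis, had 1.72, 3.04, 3.03 and 3.18 in tg DP and -1.78 and -2.98 in tg B (difference 5.12, SE 1.47, adjusted p = 0.0683). Eif2s3y, a single-copy translation factor gene expressed in many male tissues, had -0.02, -2.48, -2.09 and -1.05 against -4.10 and -3.50 (adjusted p = 0.224), whereas Usp9y, Zfy1 and Zfy2 overlapped. Xist, the RNA of the inactive X chromosome, overlapped too, between -3.34 and -2.52 in tg DP and at -3.33 and -3.20 in tg B. The tg DP and tg B arrays thus differed in the signal of Y repeat genes as well as in the sorted lineage. Whether this marks the sex of the mice was not tested, and Y signal and lineage cannot be told apart in these arrays.

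**Figure D5:**
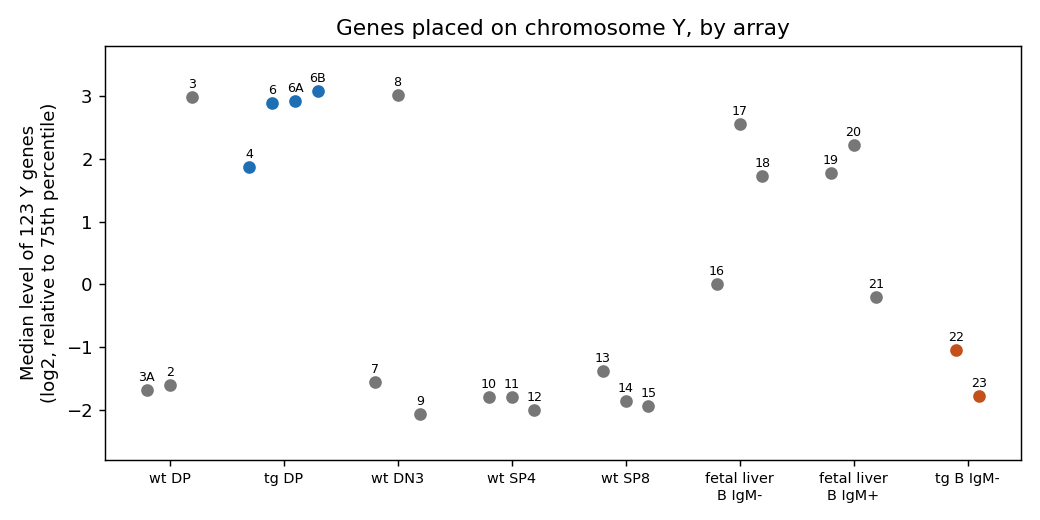
Median level (log2, relative to the array 75th percentile) of the 123 genes placed on chromosome Y on each of the 24 arrays, labelled by title number and grouped as in the labels. The 4 tg DP arrays lie between 1.87 and 3.08 and both tg B arrays at or below -1.05, while wt DP holds 1 high and 2 low arrays.

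Genes of cell fate and growth outside the lineage lists gave single calls. Tcf12, the E protein HEB of T cell development, had -1.69, -2.32, -2.36 and -1.78 in tg DP and -3.86 and -7.28 in tg B, a difference of 3.54 (SE 0.66, adjusted p = 0.0184) that was 1.82 (adjusted p = 0.278) without tg B 23. The main Tcf12 probe was well above background on only 1 of 2 tg B arrays. The other Tcf12 probe differed by -0.22, with tg B 23 above every tg DP array. Tcf12 was the only call among 9 E and Id protein genes. Of 13 Bcl2 family genes 1 was called, Bcl2l11, which encodes the death inducer BIM, at 3.87 (adjusted p = 0.0332), but its other probe differed by -1.09. The main Bcl2l11 probe was well above background on only 1 of 2 tg B arrays, with -4.58 on tg B 22 and -7.35 on tg B 23, so 3.87 is a fitted value. Of 22 DNA replication and mitosis genes 1 was called, Pcna (adjusted p = 0.0348). No tg B array and only 3 of 4 tg DP arrays measured it well above background, so no size is given for its difference. The main probe of Birc5, an inhibitor of apoptosis that acts in mitosis, differed by -0.69 (adjusted p = 0.0524). Its other probes were higher in mean in tg DP. The probe among them that was well above background on all 6 arrays differed by 0.55, with overlapping groups. The remaining probe was well above background on all 4 tg DP arrays and on 0 of 2 tg B arrays. It had 0.01, -1.65, -1.02 and -0.24 against -6.51 and -5.43, so the Birc5 probes did not share a direction. Of 26 cytosolic ribosomal protein genes 1 was called, Rpl4, at 1.78 (adjusted p = 0.033). Medians of these 4 lists were 0.27, 0.20, 0.20 and 0.04.

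Among cytokine receptor genes of the interleukin-7 and common-gamma family Il2ra was the only call of 15, and the median difference was -0.03. Il7r, the interleukin-7 receptor, was well above background on 1 of 4 tg DP arrays and 0 of 2 tg B arrays, so no difference was detectable. Il2rg, the common gamma chain, was at -2.36, -2.51 and -1.84 on tg DP 6, 6A and 6B. It was at -7.72 on tg DP 4 and at -7.68 and -7.43 in tg B. Only 3 of 4 tg DP arrays and 0 of 2 tg B arrays measured it well above background (adjusted p = 0.107), so no size is given for its difference. Its direction turned, to -3.11, with slide as a block. The lists of niche signal receptors (7 genes), MHC class II presentation (10), immediate early genes of receptor signalling (14), thymic egress and homing (10), coreceptor regulators (9), B lineage transcription factors (16) and interferon response (14) held 0 calls each, with medians of 0.03, 0.21, 0.14, 0.28, -0.07, 0.08 and 0.66.

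Markers of other cells that a sort could carry were not called, with 1 exception. Myeloid and dendritic (18 genes), erythroid and megakaryocyte (11), NK and innate lymphoid (13) and thymic epithelial and stromal markers (19) held 0 calls each, with medians of 0.03, 0.12, 0.09 and 0.42. The mean level of the epithelial and stromal markers was -1.52 to -0.94 in tg DP and -1.41 and -1.72 in tg B. Of 7 plasma cell markers, whose median was -0.12, Jchain, the joining chain of secreted antibody, was called higher in tg DP, at 2.49 (adjusted p = 0.0392). This too rested on tg B 23, being 0.76 without it, and Jchain was well above background on only 1 of 2 tg B arrays. Foxn1 itself, which lymphocytes are not known to need, differed by 0.42 (adjusted p = 0.383), with -0.17, 0.06, -0.02 and 0.22 in tg DP and 0.13 and -0.92 in tg B. The labels do not say which part of the gene is lost, so its signal does not check the genotype. The pan-leukocyte gene Ptprc differed by 0.53 (adjusted p = 0.245).

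The question whether the T against B difference within the transgenic thymus departs from that between the same phenotypes elsewhere was put to a difference of differences, with wt DP and fetal liver IgM-negative B cells as the other pair. It called 2 of 33541 genes, which is 0.00596%, and 3246 had an unadjusted p under 0.05. Neither gene was well above background in tg B, so their sizes are lower bounds. Supt16 differed by at least 2.83 within the transgenic thymus and by -1.23 between the other pair, a difference of at least 4.05 (adjusted p = 0.0111). The unnamed probe A_55_P1981455 differed by at least 3.17 and by -0.82, a difference of at least 3.99 (adjusted p = 0.0345). With slide as a block 0 genes were called by limma in this comparison, and 3378 had an unadjusted p under 0.05. Tissue, genotype and slide all change between the pairs, so their parts cannot be told apart.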

How the data were processed

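Amplified polyadenylated RNA of sorted cells was measured on 1-colour Agilent arrays. Per the file headers, the deposited intensities are Feature Extraction processed signals with flags. The authors' deposited series matrix holds log2 values and was an alternative. Control spots (3671 of 62976) were dropped, 248 values of uneven spots became missing, and 55681 probes gave 34786 names, of which 33544 were kept because some group had a probe that exceeded background on each of its arrays. limma 3.58.1 in R 4.3.3 (lmFit, eBayes, residual df 16) was fitted to group means on all 24 arrays without covariates, and checked on simulated data. The simulated arrays had independent noise and no slide effect, dim array or repeated sample, so that check does not bear on any of these. The number of arrays limits the precision.

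Genes named were up to 12 calls in each direction whose groups did not overlap (some named genes are not reported here), up to 4 members per list by size of statistic, 28 fixed lineage genes, and up to 8 detected in 1 group only. Members, lists and tests were chosen with earlier results of these data known. The 24 lists had 333 measured entries.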

Additional observations from a re-analysis of the deposited data

Results flagged for a closer look

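Gaps within the 4 tg DP arrays were tested with Dixon's ratio at its 95% level over 65 genes considered for the text, where chance would flag about 1 in 20 groups. It marked 5 genes: Osbpl8 on tg DP 4 (-1.87), Ggh on tg DP 6B (-2.99), Ets1 on tg DP 6B (2.77), Cd247 on tg DP 6 (-0.01) and Il2rg on tg DP 4 (-7.72). Ets1 remained above both tg B arrays on each of the others.

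Supt16 and the probe A_55_P1981455 were marked because the difference between T and B cells within the transgenic thymus departed from that outside it, by fitted values of 6.37 and 4.90 on the log2 scale. Both were below background in tg B, so these fitted values are not measured sizes, and the lower bounds were 4.05 and 3.99.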

How the results depend on the processing

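The 419 genes called higher, 310 called lower and 2 called in the difference of differences gave 142, 193 and 1 with quantile scaling, 333, 879 and 2 with median scaling, 136, 256 and 0 with normexp and quantile scaling (2764 at an unadjusted p under 0.05 in the last), 142, 192 and 1 with the authors' log2 values, 390, 277 and 2 without the filter, 317, 334 and 0 (2696) over probes well above background on all 6 arrays, 239, 96 and 2 with the mean of a gene's probes, 679, 540 and 4 with a variance trend, 55, 54 and 0 (3378) with slide as a fixed block, and 218, 142 and 2 with slide as a random block. Limma fits on only the groups compared gave 18, 0 and 4 (3437 unadjusted), array weights 0, 0 and 0 (2125 and 1716), averaging arrays that share a title number 3, 0 and 1 (4887), and leaving out both dim arrays 9, 4 and 2. Leaving out 1 array gave 14 to 3659 higher, 9 to 3020 lower and 1 to 3184 in the difference of differences; the lone array left in tg B was assumed to vary like other groups.

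The median of the B lineage markers, 0.12, was -0.16 with median scaling, -0.12 with the authors' values, -0.11 with title numbers averaged, -0.22 without the dim arrays and -0.14 to 0.46 leaving out 1 array. Median scaling moves the difference of every gene by the same amount, and the median of all genes was -0.15 with it. The B signature median, -0.66, was -0.94 with median scaling and -0.48 with the mean of probes. The T signature median, 0.20, was -0.24 with slide as a block. T lineage medians stayed positive, 0.28 to 0.99.

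No called gene of those described reversed. Uncalled genes turned: Cd3e to 0.044 with array weights, 0.010 with the authors' values, 0.009 with quantile scaling, 0.060 with normexp, and -0.101 to 0.015 leaving out 1 array; Notch1 to -0.11 with title numbers averaged, -0.25 with median scaling and -0.059 to 0.165 leaving out 1 array; Rag2 to -0.053 and Birc5 to 1.70 with the mean of probes; Cd79b to -0.055 with median scaling; with slide as a block Igkc to 1.72, Cd79b to -0.081, Ebf1 to 0.57, Il2rg to -3.11, Ptcra to -0.17, Rag2 to -0.51, Rag1 to -0.16, Cd4 to 0.079 and Bcl11b to -1.005; and without both dim arrays Foxn1 to -0.038, Igkc to 0.60, Ighm to 0.21, Ms4a1 to 0.12 and Ptcra to -0.058. Leaving out 1 array, Ebf1 ran from -1.141 (without tg B 23) to 0.433 (without tg B 22), Ighm from -2.742 (without tg B 22) to 0.087 (without tg B 23), Igkc from -2.434 to 0.527, Ptcra from -0.132 (without tg B 23) to 0.81 (without tg B 22), Rag2 from -0.844 to 4.217 and Foxn1 from -0.103 to 0.946. The turns with median scaling go with that common shift of all genes, and the cause of the others was not tested. No paired analysis was possible because the groups compared share no replicate number.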
